A study of Mus musculus with 6 samples.

Results

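The genes described here encode the proteins of the cytosolic ribosome, followed in activated mouse CD4 T cells with and without Prmt5. They were chosen by symbol among the protein-coding rows of the deposited table: every symbol starting with Rpl or Rps and a digit, plus Rplp0, Rplp1, Rplp2 and Rpsa, without the Rps6k kinases and Rps19bp1. The rule found 93 of 54532 gene rows, of which 22046 were protein-coding. There were 59 members with large subunit (Rpl) symbols and 34 with small subunit (Rps) symbols. By symbol, 77 were core ribosomal protein genes, 46 of the large and 31 of the small subunit, 8 were paralogs such as Rps27l and Rpl22l1, and 8 had pseudogene-like symbols ending in -ps although they are classed as protein-coding. For 2 members, Rpl10l and Rpl36-ps4, every library held 0 counts, which allows up to 0.101 CPM (counts per 1000000 gene counts) at 3 counts in the smallest library. In all, 88 members passed the filter on low counts.

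Total RNA was sequenced after removal of ribosomal RNA, with strand-specific libraries, from CD4 T cells of C57BL/6 mice that were kept for 48 h on antibodies against CD3 and CD28 without added cytokines. Controls carried the genotype iCD4-PRMT5fl/fl (replicates 1, 2 and 4) and knockouts iCD4-PRMT5delta/delta (replicates 1, 4 and 5), with 3 biological replicates each per the series. The driver of the deletion, the age of the mice and any pooling of animals are not given in the sources used here. Each column name also carries a tag that sets apart control 1, control 2 and knockout 1 (called batch A) from control 4, knockout 4 and knockout 5 (batch B); the labels do not say what this tag marks.

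A ribosome is built from ribosomal RNA and a nearly fixed set of proteins, each present as a single copy except for the stalk proteins, and its proteins are made in balance with each other. In vertebrates the mRNAs of ribosomal proteins start with a C followed by a run of pyrimidines, the 5′ terminal oligopyrimidine (TOP) element, through which mTOR and Larp1 control their translation. T cells enlarge before they divide after antigen stimulation, and ribosome production rises with that growth, in part under Myc. Prmt5 transfers symmetric methyl groups to arginines, and ribosomal protein Rps10 is among its reported substrates, so the comparison asks whether mRNAs of the ribosome moved with the loss of the enzyme.

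The starts of 8 member genes are shown because these genes carry the results below: the paralog pairs, the stalk proteins, Rpl39 with the widest gap between batches among the core members, and Rps10. Each run of 30 bases covers 10 bases before the start listed first by RefSeq on GRCm38.p6 and the 20 bases from it, 5′ to 3′ on the gene's strand, with its longest stretch of C and T in capitals.
Rps27: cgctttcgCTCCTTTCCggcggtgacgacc
Rps27l: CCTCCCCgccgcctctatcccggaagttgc
Rpl22: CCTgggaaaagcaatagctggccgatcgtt
Rpl22l1: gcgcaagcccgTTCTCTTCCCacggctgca
Rpl39: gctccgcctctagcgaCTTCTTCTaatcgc
Rps10: gcgcacgCCCCTTCCTTTCCagcctccgcc
Rplp0: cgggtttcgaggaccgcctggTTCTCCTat
Rplp2: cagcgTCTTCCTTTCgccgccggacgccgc
These windows lie at chr3:90213629-90213658 (minus strand), chr9:66946076-66946105 (plus), chr4:152325716-152325745 (plus), chr3:28805498-28805527 (plus), chrX:37085203-37085232 (minus), chr17:27635225-27635254 (minus), chr5:115559457-115559486 (plus) and chr7:141447641-141447670 (plus), in the order printed. RefSeq promoter windows were matched by symbol for 65 members, 57 of them core. From 10 bases before to 40 after the start on the gene's own strand, 44 of 57 core members (77.2%) held a run of at least 6 C or T letters that opens with C, against 33.4% of 27025 genes with a window. The letters CCGGAA, the core that ETS factors bind, were present on either strand of the 300 bases in 50.9% of core members against 15.2% of all windows. GGGCGG, a GC box, was present on either strand in 59.6% against 35.9%. The reverse of CCGGAA holds TTCC, so that it can overlap the pyrimidine run. Such a match is a description of letters, not a binding site.

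The deletion was visible at the RNA level, and the libraries matched their labelled cell type. Prmt5 stood at 134, 133 and 98.2 CPM (on library sizes scaled by TMM) in controls 1, 2 and 4, and at 41.1, 34.2 and 36.7 CPM in knockouts 1, 4 and 5. It was lower in every knockout, with a log2 fold change of -1.58 ± 0.09 (SE, n = 3 per group) in the fit with a batch term (edgeR adjusted p = 0.00312). In bulk RNA, fewer cells with an intact allele and less RNA per cell cannot be told apart. Summed over 6 genes, CD4 T cell markers stood at 1084 to 1460 CPM of gene counts, and Cd8a and Cd8b1 at 7.06 to 19.8. B cell markers summed to 3.23 to 4.82 in the controls and to 18.7 in knockout 1 and 19.7 in knockout 5, with knockout 4 inside the range of the controls. NK cell markers summed to 29.6 to 71.3 in batch A and to 15.9 to 16.5 in batch B. Macrophage and monocyte markers reached at most 21.3, dendritic cell markers 10.2, neutrophil markers 0.814 and erythroid markers 0.289, and of all listed markers only 4 globin genes were at 0 in all libraries. Gene counts per library ran from 29623513 to 39832588.

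Ribosomal protein mRNAs were among the most abundant in these cells. The median core member stood at 1144 CPM against 14.7 CPM for the median of all 15685 genes tested, and per kilobase of the authors' gene length at 1077 against 5.51 CPM. The highest levels per kilobase were those of Rplp1 (2898 CPM per kilobase) and Rplp0 (2823), which form the stalk that recruits translation factors, followed by Rpl23a (2565), a protein at the exit of the peptide tunnel, and Rps4x (2489), an X-linked protein of the small subunit. Rplp2, the partner of Rplp1 in the stalk, was far lower at 358 CPM per kilobase, rank 69 of the 88 tested members. The lowest were Rpl39l (1.22), a paralog known from male germ cells, and Rpl13a-ps1 (0.667). Rpsa, which sits at the head of the small subunit and is also known as the laminin receptor, had the highest CPM, with 3420, 3695 and 4579 in controls 1, 2 and 4 and 2875, 4396 and 4060 in knockouts 1, 4 and 5.

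The whole class followed the column-name batch. Members held 8.31%, 8.97% and 11.3% of all gene counts in controls 1, 2 and 4, and 7.77%, 11.04% and 10.99% in knockouts 1, 4 and 5. The 3 libraries of batch B were higher than the 3 of batch A in either genotype, with means of 11.1% and 8.35%, and the genotypes overlapped. Their shares were 9.52% ± 1.56 in controls and 9.94% ± 1.87 in knockouts (SD, n = 3 each). Knockout minus control was 0.414 percentage points over all libraries, but -0.871 inside batch A and -0.264 inside batch B. In either batch each knockout lay below each control, with 2 controls against 1 knockout in batch A and 1 against 2 in batch B, too few for a test within a batch. Counts of large subunit members for each count of the small subunit were 1.49, 1.47 and 1.49 in control 1, control 2 and knockout 1, and 1.44, 1.45 and 1.44 in control 4, knockout 4 and knockout 5. This ratio was slightly lower in each batch B library than in each of batch A. A further 390 rows classed as ribosomal protein pseudogenes held counts equal to 0.521% to 0.566% of those of the members.

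**Figure D1:**
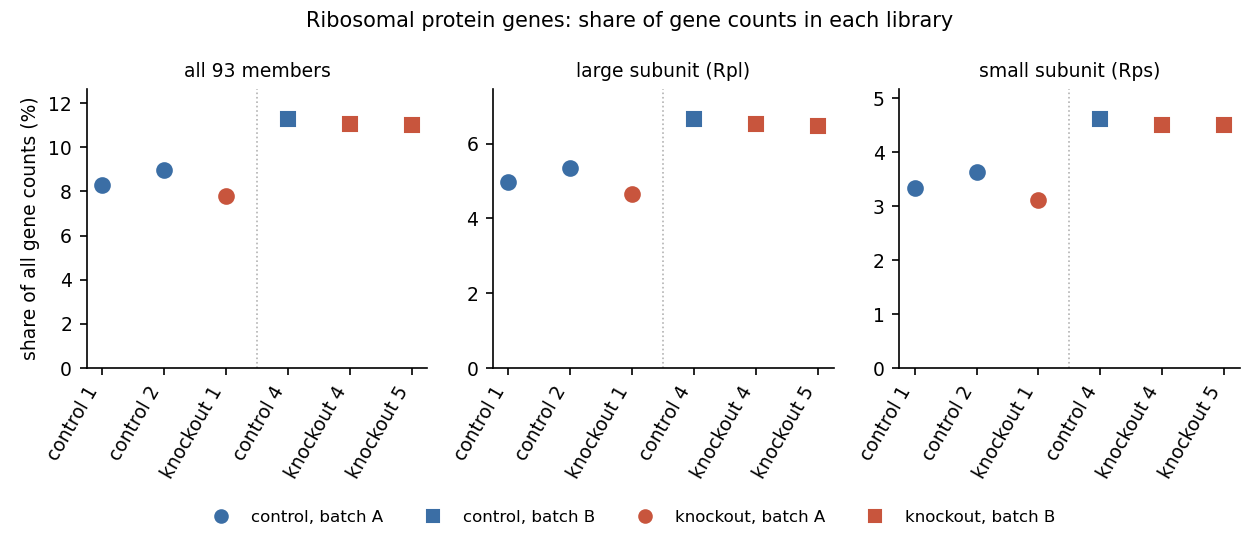
Share of all gene counts (percent, axis from 0) held by the 93 members, by the large subunit members and by the small subunit members, 1 point per library, with batch A left and batch B right of the dotted line. Batch B libraries lie at 10.99% to 11.3% and batch A libraries at 7.77% to 8.97% for all members, with controls and knockouts in each range.

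Of the 88 tested members, 77 were higher in batch B than in batch A and none was lower past an adjusted p of 0.05 (edgeR quasi-likelihood test of batch with genotype in the model, Benjamini-Hochberg over all genes). Over all genes, 15.7% were called higher in batch B and 16.5% lower. Called members were 44 of 46 core large subunit genes, 30 of 31 core small subunit genes and 3 of 6 tested paralogs, and their median log2 fold change over all 88 was 0.52 against 0.02 for all genes. For 78 members all batch B libraries stood above all batch A libraries, which held for 19% of all genes (19.6% stood below). Over the 2926 pairs of core members, the median Pearson correlation of log2 CPM across the 6 libraries, which all pairs share, was 0.969. Each core member lay at its lowest in knockout 1, save for a single gene, and control 4 was the highest library for 43 of 77.

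Rpl39, a small protein lining the exit tunnel, had the widest gap among core members. It stood at 519, 570 and 380 CPM in control 1, control 2 and knockout 1, and at 828, 799 and 803 CPM in control 4, knockout 4 and knockout 5. The batches did not overlap, and its log2 fold change of B over A was 0.84 ± 0.13 (SE; edgeR adjusted p = 0.00432). Rps28, a small subunit protein near the mRNA exit, had 431, 514 and 364 CPM in the batch A libraries, against 739, 679 and 708 CPM in those of batch B, in the same order, and rose by a log2 fold change of 0.79 ± 0.12 (edgeR adjusted p = 0.00409). Rplp0, the base of the stalk, went from 3581, 3641 and 2818 CPM to 4480, 4170 and 4314 CPM, a log2 fold change of 0.45 ± 0.13 (edgeR adjusted p = 0.0314). The proteins whose free forms bind Mdm2 moved with the class: Rpl5 had means of 2011 and 2943 CPM in batches A and B, Rpl11 of 945 and 1324, Rpl23 of 1167 and 1747, and Rpl26 of 983 and 1487. The same held for Rps6, the target of the S6 kinases (999 and 1432 CPM), Rps3, which also has DNA repair roles (1701 and 2468), Rps19, mutated in Diamond-Blackfan anaemia (871 and 1267), and Rps27a, made as a fusion with ubiquitin (833 and 1112).

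**Figure D2:**
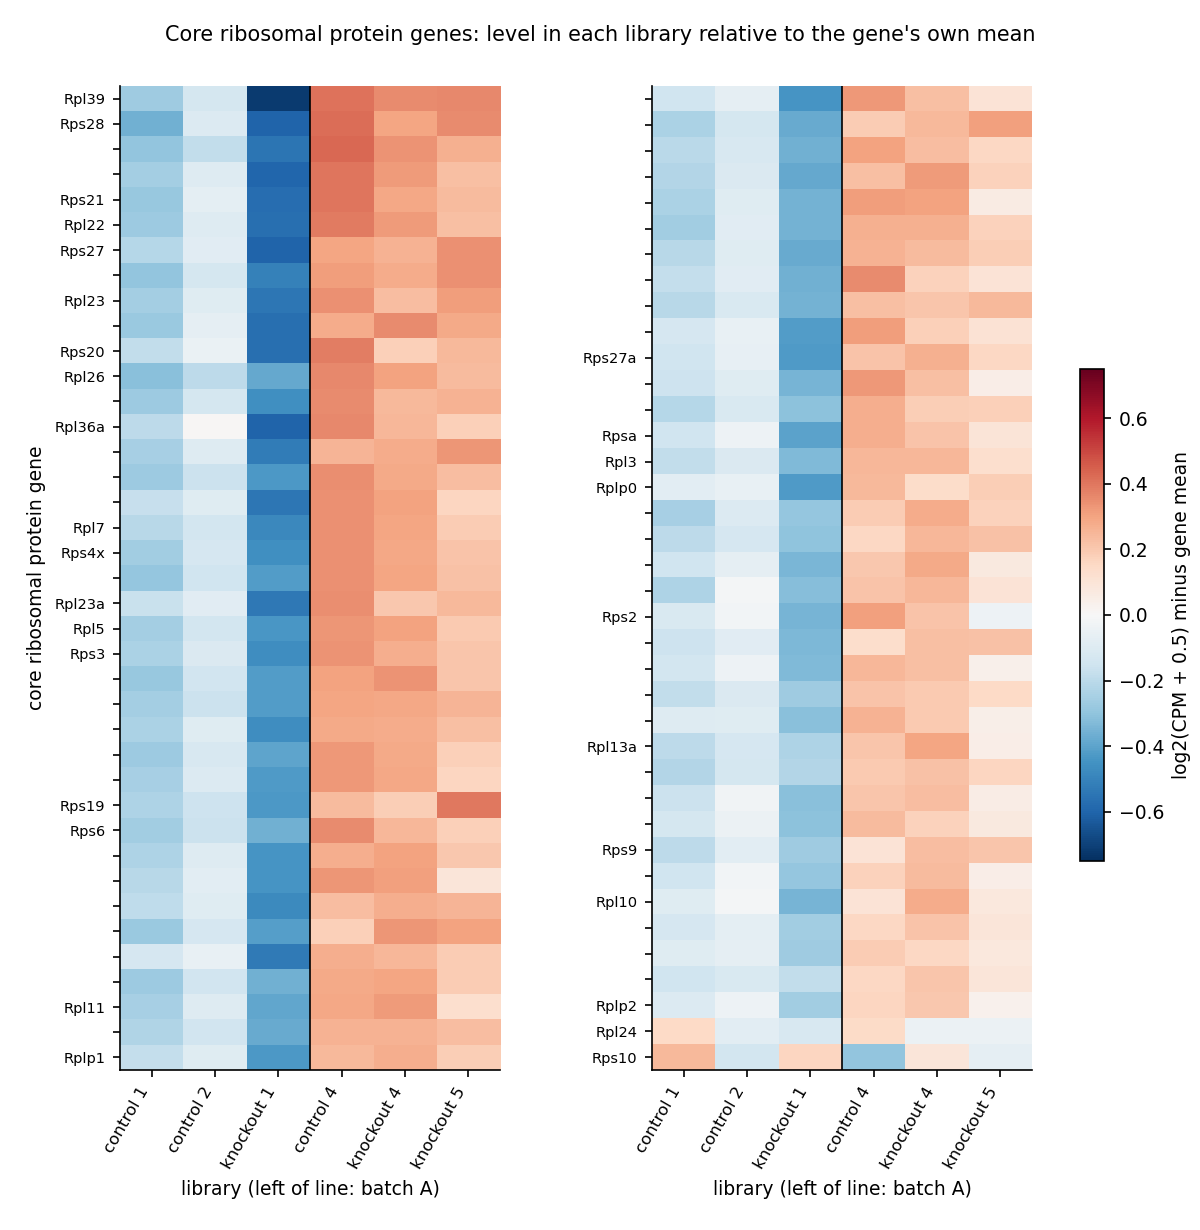
Level of each of the 77 core members in each library, as log2(CPM + 0.5) minus the gene's mean over the 6 libraries (colour scale), ordered by the batch B over A fold change from top left to bottom right, with names beside some of the genes. Nearly all rows are low in the batch A columns, lowest in knockout 1, and high in batch B, while Rps10 and Rpl24 at the bottom do not follow.

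The size of the gap varied with base composition. Core members ran from 41.3% to 62.4% GC in their longest coding transcript, and GC content and the log2 fold change of B over A had a Pearson correlation of -0.45 across the 77 genes, which come from the same 6 libraries. The 38 members with lower GC had a median log2 fold change of 0.60 and the 39 with higher GC of 0.46. Over 11978 protein-coding genes with a transcript the same correlation was -0.11. Transcript length had a Pearson correlation with this fold change of -0.22 over those genes and of 0.03 across the core members. By library, the correlation of GC content with a gene's deviation from its own mean was 0.48 in knockout 1 and -0.40 in control 4. The part of base composition or transcript length in the gap was not tested.

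The number of calls depended on the scaling and on the libraries kept, both for the members and for all genes, though not to the same degree. With all libraries and TMM scaling, 77 of 88 members and 2461 of 15685 genes were called higher in batch B. The ERCC spike-ins made up 0.566% to 1.35% of gene and spike-in counts together. Their mean share was 0.82% in controls and 1.20% in knockouts, and 0.89% in batch A and 1.13% in batch B. With libraries scaled to the spike-ins, no member was called higher in batch B, beside 177 of 15685 genes. The members then had a median of 0.19 against -0.30 for all genes. Without knockout 1, 2 members were called higher, beside 592 of 16143 genes tested. Without control 1 the counts were 37 members and 1122 of 16386 genes, and without control 4 they were 32 members and 660 of 16223 genes. The median log2 fold change of the members was 0.44 without knockout 1, 0.51 without control 1 and 0.63 without control 4, against 0.52 with all libraries. NK cell markers moved with the batch as given above, and their part was not tested.

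Prmt5 genotype left no member past the threshold. In the fit on genotype alone, edgeR called 0 of 88 members and 0% of all genes, and Prmt5 itself was not called (edgeR adjusted p = 0.109). No member had an unadjusted p under 0.05 there, beside 1780 of 15685 genes. The gap between batches stays in the error of this fit, with a median SE of 0.23 over core members against 0.11 with the batch term. Its lack of calls thus cannot show that genotype left the members unchanged. On genotype alone, DESeq2 called 0 members and 442 genes, and limma-voom 0 members and 0 genes. The median log2 fold change of the members was 0.04 (0.01 for all genes), but -0.53 when scaled to the spike-ins, where all genes had a median of -0.59. All 88 members overlapped between genotypes, while 9.35% of all genes stood higher in every knockout than in every control and 8.68% lower. For the 78 members with every batch B library above every batch A library, this overlap was fixed, since each genotype has libraries in both batches. It therefore says nothing about genotype for these members. With the batch in the model, 0 members were called against 2.87% of all genes called higher and 3.63% lower. There, 5 of 88 members had an unadjusted p under 0.05, beside 4561 of 15685 genes. DESeq2 called 2 members lower, Rps20 and Rpl12, beside 1282 genes called lower and 1096 higher. Both counts of members are smaller shares than those of all genes. The members nonetheless leaned to lower values in the knockouts, with 84 of 88 log2 fold changes below 0, beside 7517 of 15685 genes. Their median was -0.15 against 0.02 for all genes, and its sign was the same under each scaling tried. Core members share the same libraries and had a median pairwise correlation of 0.969, so these signs are not separate observations. The lean was not particular to the members: mitochondrial ribosomal proteins had 62 of 77 below 0 and a median of -0.16. For the members, knockout over control had a median of -0.23 among batch A libraries and -0.05 among those of batch B. Without knockout 1 the median of the members was -0.08. Among core members the estimates had an SD of 0.08 (log2 fold changes) and a median SE of 0.11. Shifts between libraries that these genes share enter each SE but not that SD, so the comparison cannot show whether single genes differed. The interaction of genotype and batch called 0 members and 0% of all genes, and 2 members, Rps27l and Rpl7l1, had an unadjusted p under 0.05, beside 996 of 15685 genes.

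**Figure D3:**
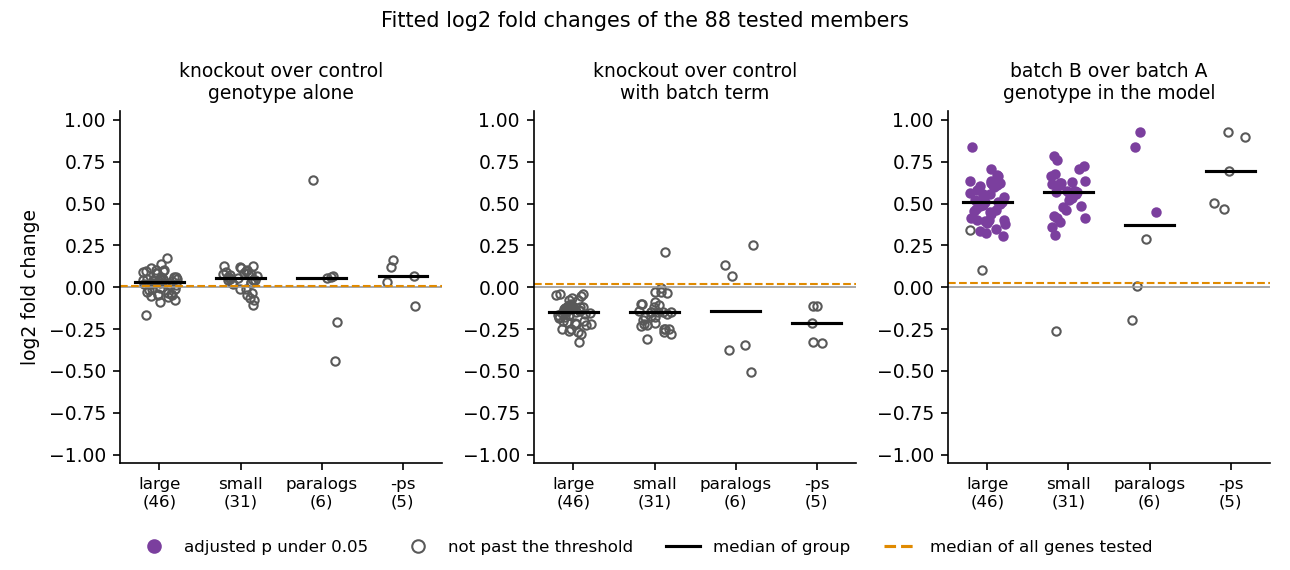
Fitted log2 fold changes of the 88 tested members in 3 comparisons, each point a gene, filled where its adjusted p is under 0.05, with group medians (black) and the median of all genes tested (dashed). No point is filled for genotype, whereas 77 are for batch B over A, a count that is 0 under spike-in scaling. For genotype alone the members centre near 0 (median 0.04, or -0.53 under spike-in scaling), and with the batch term at -0.15.

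The lowest batch-term estimates among members above 5 CPM belonged to Rpl22l1, Rpl36a, Rps20 and Rpl39. Rpl22l1, the paralog of Rpl22, stood at 180, 197 and 238 CPM in the control libraries 1, 2 and 4, against 135, 224 and 173 CPM in knockouts 1, 4 and 5. Each knockout was below the controls of its own batch, although the genotypes overlapped, giving a batch-term estimate of -0.37 ± 0.13 (log2, SE; edgeR adjusted p = 0.105). Without knockout 4 it was -0.48 and past the threshold. Rpl22, a large subunit protein with a role in early T cell development, stood at 424, 479 and 671 CPM and at 347, 640 and 599 CPM, with the same order of batches. Log2 fold changes were -0.33 ± 0.12 for Rpl36a, -0.31 ± 0.12 for Rps20 and -0.28 ± 0.13 for Rpl39, with edgeR adjusted p of 0.131, 0.134 and 0.199. Only Rps27l, Rps10 and Rpl7l1 had a positive estimate above that level, and the next in rank, Rps9, stood at 1260, 1369 and 1549 CPM in the control libraries, against 1201, 1694 and 1665 CPM in the knockouts.

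Rps27l had the genotype estimates farthest from the median of the members, both without and with the batch term. It encodes a near copy of small subunit protein Rps27 and is known as a target of p53. It stood at 99.2, 107 and 132 CPM in control libraries 1, 2 and 4, against 87.6, 202 and 237 CPM in knockouts 1, 4 and 5. Knockouts 4 and 5 were above all controls and knockout 1 below all of them. Its log2 fold change was 0.64 ± 0.34 (SE) by genotype without batch and 0.25 ± 0.21 once batch was a term (edgeR adjusted p of 0.546 and 0.453). Among batch A libraries knockout over control was -0.23, against 0.73 among those of batch B. The interaction had a log2 size of 0.97 ± 0.20 and an edgeR p of 0.00288, which became 0.749 after adjustment over all genes; DESeq2 and the fit without a filter called it. Rps27 itself stood at 666, 729 and 951 CPM in the control libraries, against 509, 929 and 982 CPM in the knockouts. Taken as a percentage of Rps27 in the same library, a measure chosen after the values were seen, Rps27l was at 14.9, 14.6 and 13.8 in controls 1, 2 and 4 and at 17.2, 21.7 and 24.1 in knockouts 1, 4 and 5. On this scale every knockout lay above every control, with an SD of 0.552 over 3 controls and of 3.51 over 3 knockouts. Knockout 1 was the knockout nearest to the controls. The same ratio was taken for 4 other pairs, Rpl22l1 to Rpl22, Rpl36al to Rpl36a, Rpl39l to Rpl39 and Rpl7l1 to Rpl7, and in each the genotypes overlapped.

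The other paralogs differed in their patterns. Rpl7l1, which takes part in large subunit assembly and resembles Rpl7, stood at 149, 154 and 110 CPM in the control libraries 1, 2 and 4, against 139, 149 and 142 CPM in knockouts 1, 4 and 5. Control 4 was the low library, where Rpl7 itself had its highest value (2953 CPM), and the log2 fold change of Rpl7l1 was 0.14 ± 0.13 for genotype with the batch term and -0.19 ± 0.13 for B over A (edgeR adjusted p of 0.519 and 0.28). Rps27rt, an intronless copy of Rps27 that can share reads with it, stood at 3.39, 4.24 and 5.31 CPM in the control libraries, against 2.12, 6.20 and 5.16 CPM in the knockouts. Rpl36al stood at 3.42 to 4.14 CPM in all libraries against 373 to 726 CPM for Rpl36a. Rpl39l stood at 0.559 to 1.58 CPM. Rpl3l, the form of Rpl3 made in heart and skeletal muscle, had 8 counts over all libraries, whereas Rpl3 stood at 2146 to 3211 CPM, and Rpl10l, a testis copy of the X-linked Rpl10, had none.

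**Figure D4:**
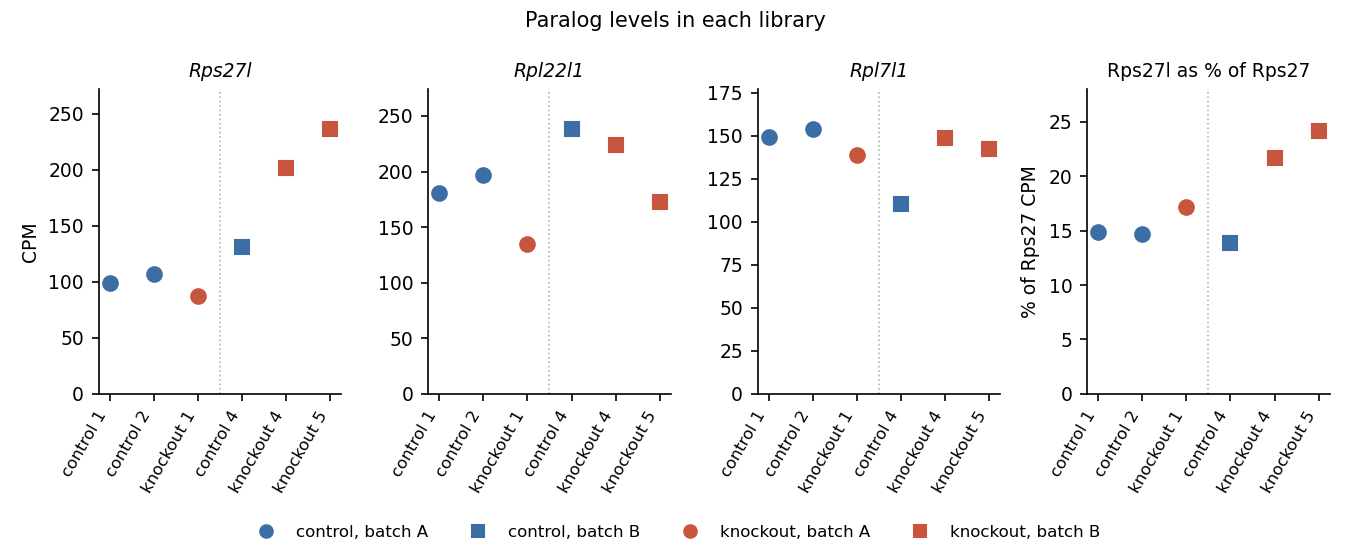
CPM of the paralogs Rps27l, Rpl22l1 and Rpl7l1 in each library, and Rps27l as a percentage of Rps27, 1 point per library with batch A left and batch B right of the dotted line. Rps27l is at 202 and 237 CPM in knockouts 4 and 5 and at 87.6 CPM in knockout 1, whereas its percentage of Rps27 is above the controls (13.8 to 14.9) in all knockouts.

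A few core members had counts far below the rest. Rpl24 stood at 2.73 to 3.39 CPM, Rps10 at 11.3 to 16.6 and Rpl13a at 52.99 to 76.5, while 74 of 77 core members had means above 300 CPM. All 3 genes share exon bases on the same strand with an overlapping gene in GENCODE M21: 47.0% of Rpl24's exon bases lie in Gm28037, 29.4% of Rpl13a's in Gm45713 and 20.6% of Rps10's in a read-through gene named RPS10-NUDT3. Those 3 partner rows held 0 counts, and Rpl36al shared 24.5% of its exon bases with Gm49383. The part of the overlap in these counts was not tested, so the values of Rpl24, Rps10, Rpl13a and Rpl36al are uncertain. Rps10, at chromosome 17, positions 27630418 to 27636669 on the minus strand, stood at 16.6, 12.6 and 11.3 CPM in the control libraries, against 15.6, 14.9 and 13.3 CPM in the knockouts. Its genotypes overlapped, and its log2 fold changes were 0.21 ± 0.16 with the batch term and -0.26 ± 0.16 for B over A, neither past the threshold (edgeR adjusted p of 0.426 and 0.25).

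Activation was compared with unstimulated cells only through the authors' deposited table, since the values of single unstimulated libraries were not used here. In the authors' deposited table, a negative log2 fold change means lower in unstimulated than in activated cells, and whether the values were shrunk is not stated. Whether those comparisons allowed for the column-name batch is not given either. Among the activated libraries, the members had a median log2 fold change of 0.52 for batch B over A. The part of the batch in the activation changes was not tested. In the authors' deposited table, 57 of 88 members were higher after activation in controls and 48 of 88 in knockouts at an adjusted p under 0.05, beside 27.7% and 25.8% of all genes. By the authors' deposited table, 2 members were lower after activation in each genotype, beside 42.8% and 35.4% of all genes. Among core members in that deposited table by the authors, 34 of 46 large subunit and 18 of 31 small subunit genes were higher after activation in controls, against 31 and 13 in knockouts. The difference between genotypes in these counts was not tested. In the authors' deposited table the activated libraries of controls and knockouts differed for 0 members, beside 6.1% of all genes.

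The exceptions were Rps27 and its intronless copy Rps27rt. In the authors' deposited table, log2 unstimulated over activated was 0.84 for Rps27 in controls and 0.88 in knockouts (adjusted p of 0.00107 and 0.000677). It was 1.21 and 1.03 for Rps27rt in the authors' deposited table (adjusted p of 0.000524 and 0.00369), which can share reads with Rps27. These were the 2 members lower after activation in each genotype. Rps27l had the largest opposite change in the authors' deposited table, at -2.43 in controls and -2.96 in knockouts (adjusted p of 3.35e-15 and 8.64e-22). Rps27 and Rps27l changed in opposite directions in either genotype. The next largest rise in controls in the authors' deposited table was that of Rps2, a small subunit protein methylated by Prmt3, at -1.68 in controls and -1.36 in knockouts. Rpl7l1 (-1.33 and -1.11) and Rpl22l1 (-0.97 and -0.65) rose beside Rpl7 (-0.88 and -0.80) and Rpl22 (-0.61 and -0.57) in the authors' deposited table.

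**Figure D5:**
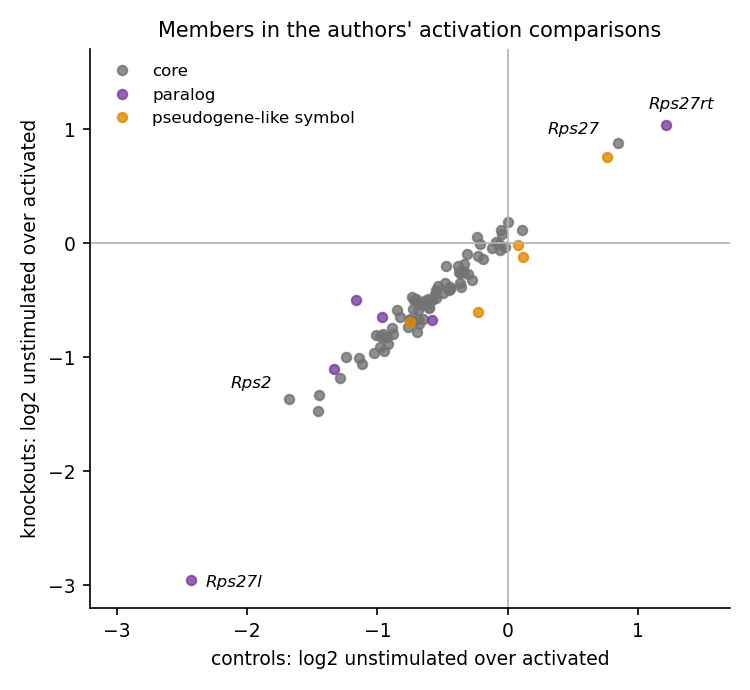
Log2 fold change of unstimulated over activated cells for the members in the authors' deposited table, controls (x axis) against knockouts (y axis), each point a gene, coloured by kind. Most points lie in the lower left (medians -0.61 and -0.50), Rps27l lies farthest at -2.43 and -2.96, and Rps27 and Rps27rt lie in the upper right.

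Genes that work with the ribosome did not share a single pattern. Fau and Rack1, ribosomal proteins whose symbols fall outside the rule, were higher in batch B. Fau stood at 531, 563 and 760 CPM in the control libraries, against 475, 721 and 634 CPM in the knockouts, and its genotypes overlapped. Of 15 translation factors and other TOP mRNAs, 6 were called higher and 3 lower in batch B and 0 by genotype with the batch term, and Eif3e, Naca and Eif3h, the 3 with the smallest genotype p, were among those higher in batch B. Mitochondrial ribosomal proteins had 21 of 77 genes higher and 1 lower in batch B, and 4 lower in knockouts with the batch term. Over all genes these shares were 15.7% and 16.5% for batch and 3.63% lower in knockouts, against which the other lists can be read too. Assembly factors leaned the other way from the members. In batch B, 8 of 21 small subunit and 8 of 21 large subunit assembly factors were called lower and 1 of each higher. By genotype with the batch term, 0 of either list were called.

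RNA polymerase I genes had 3 of 15 higher and 4 lower in batch B, snoRNP proteins 1 and 3 of 12, ribosomal protein chaperones 0 and 1 of 5, and ribosome rescue factors 0 and 4 of 9, with 0 called by genotype in these lists. Of 13 other initiation factors, 4 were lower in batch B, and Eif2b5, a subunit of the exchange factor of eIF2, was lower in knockouts (150, 155 and 168 CPM against 115, 120 and 107; edgeR adjusted p = 0.0325 with the batch term). In the list of 11 mTOR and Myc control genes, 7 were lower in batch B and 1 higher. Myc stood at 365, 275 and 355 CPM in control 1, control 2 and knockout 1 and at 118, 163 and 144 CPM in batch B, opposite to the ribosomal protein mRNAs, and Larp1 at 620, 476 and 691 against 197, 246 and 226 CPM (both picked after their values were seen). Eif4ebp1, the translation repressor that mTOR inactivates, was lower in all knockouts, at 120, 131 and 163 CPM in the control libraries, against 44.8, 92.0 and 37.8 CPM in the knockouts, with a log2 fold change of -1.41 ± 0.29 (edgeR adjusted p = 0.03995 with the batch term). Of 4 genes of the ribosomal protein to p53 checkpoint, Trp53 was called higher in knockouts with the batch term (log2 fold change 0.65 ± 0.13, edgeR adjusted p = 0.0366) but not on genotype alone (edgeR adjusted p = 0.775). It stood at 45.8, 36.3 and 23.4 CPM in the control libraries, against 71.7, 31.7 and 34.6 CPM in the knockouts. The genotypes overlapped, and it was lower in batch B, with a log2 fold change of -0.96. Mdm2, which free Rpl5 and Rpl11 bind, stood at 125, 114 and 127 CPM in the control libraries, against 131, 204 and 297 CPM in the knockouts 1, 4 and 5, beside the values of Rps27l in the same libraries, and was not past the threshold (edgeR adjusted p = 0.145).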

How the data were processed

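RNA-seq of 6 libraries was used. The deposited values are unnormalized read counts of every gene, called raw in the file headers. Per the submitters' processing notes, the tools were STAR, featureCounts, DESeq and DESeq2 and the build GRCm38.p3, with no roles or versions given. The deposited log2 fold changes are those of the authors' own comparisons of 2 groups, first group over second as the column names give it, a direction that Prmt5 follows. The deposited adjusted p-values carry no named method. The authors' gene length column served for levels per kilobase. A further 12 columns of per-sample values name no sample of this series and were not used here.

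Groups follow the genotype labels, and columns were matched to samples by title. Low-count genes were removed by edgeR 4.0.16 (filterByExpr, at least 10 counts and a total of at least 15). The 15685 genes left, of 54532, were scaled by TMM and fitted with glmQLFit and glmQLFTest, two-sided, with Benjamini-Hochberg adjustment over all genes and a threshold of 0.05. The 92 ERCC rows stayed out of tests and library sizes. The models were genotype alone, genotype with batch, and their interaction. SE was taken as the size of the log2 estimate over the root of its F statistic. R 4.3.3, DESeq2 1.42.0, limma 3.58.1 and Python 3.11.15 were used, and the fit was tested on simulated data. DESeq2 and limma-voom, other scalings, no filter, and leaving out each library were alternatives. Coordinates and transcripts come from GENCODE M21 (GRCm38), where all 93 members were found by identifier, and promoter windows from RefSeq (GRCm38.p6).

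The members, lists, tests and the rule for named genes were chosen with earlier results of these data known. The rule took the 4 highest and 2 lowest levels per kilobase, the 4 largest and 4 lowest batch-term changes and the 3 largest and 3 lowest batch changes above a mean of 5 CPM, any member past the threshold by genotype, paralogs with their partners, 14 members with known roles, and 3 genes of each context list by batch-term p. Not all genes it took are printed. Rpl12, Rps27rt, Rpl13a, Rpl24, Myc and Larp1, the start windows of Rps10 and Rplp2, and the ratio of Rps27l to Rps27 were added after their values were seen. Some results on single genes are not reported here.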

Additional observations from a re-analysis of the deposited data

How the results depend on the processing

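The median log2 fold change of the members moved with spike-in scaling by more than the SD of 0.253 between control libraries: to -0.53 on genotype alone, to -0.62 with the batch term (all genes -0.44) and to 0.19 for batch B over A, where the members called went from 77 to 0 and genes called in either direction from 5045 to 1148. The SD of 0.253 holds the gap between batches, since the controls come from both. A move smaller than it therefore does not mean that a median was unchanged. Under the other scalings, DESeq2, limma-voom and no filter, 74 to 78 members were called for B over A. Leaving out each library gave 2 to 77 members for B over A, beside 1284 to 5202 genes called in either direction, and 0 to 1 for genotype with the batch term (1 without knockout 4, Rpl22l1), beside 0 to 2056 genes. On genotype alone it gave 0 members and 0 genes. With the batch term DESeq2 called 2 members and 2378 genes, and the fit with no filter on low counts 1 member and 2944 of 35183 genes. For the interaction each called 1 member (Rps27l), beside 39 and 250 genes. Without each library the medians ran from -0.10 to 0.21 on genotype alone, from -0.24 to -0.08 with the batch term and from 0.44 to 0.63 for B over A. The share difference of 0.414 percentage points ran from -0.192 to 1.496 without each library, and was 0.483 over protein-coding rows.

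Of 135 values of single genes under these alternatives, 116 kept their direction and side of the threshold and 6 reversed. With the batch term and spike-in scaling, Rps27l was -0.22, Rpl7l1 -0.33 and Rps10 -0.23; without each library, the batch-term value of Rps27l ran from -0.24 (without control 4) to 0.71 and that of Rpl7l1 from -0.14 (without control 4) to 0.38, and Rpl7l1 for B over A from -0.45 to 0.075 (without control 4). On genotype alone Rps27l was 0.05 with spike-in scaling and ran from 0.36 (without knockout 5) to 0.95 (without knockout 1). The cause was not tested.

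The titles share replicate numbers 1 and 4 between genotypes, which gives only 2 pairs, and those pairs also share the column-name batch. Same-numbered deviations from the group means correlated at 0.670 and 0.484 across genes. Pairs of the same batch with different numbers correlated at 0.454 (control 2 with knockout 1) and 0.451 (control 4 with knockout 5). Pairing by number and batch thus cannot be told apart here. With the replicate block beside genotype, 0 members were called beside 768 of 15685 genes, and the members had a median of -0.11. Depth limits the 5 members left untested, which held 0 to 41 counts over all libraries; intervals were not given for single genes, since the spread between libraries exceeds counting error.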
